A study of Mus musculus with 8 samples.

Results

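The Wnt ligands, the Frizzled receptors, their co-receptors, beta-catenin and the Tcf/Lef factors were examined in open chromatin maps of granule neuron progenitors (GNPs) from the mouse cerebellum at postnatal day 7. Members were all protein-coding genes of the GENCODE M21 annotation of mm10 whose symbol is Wnt or Fzd followed by a number, together with Lrp5, Lrp6, Ctnnb1, Tcf7, Tcf7l1, Tcf7l2 and Lef1. This gave 36 of 21938 protein-coding genes, namely 19 ligands, 10 Frizzled receptors, 2 co-receptors, 1 beta-catenin gene and 4 Tcf/Lef factors. A peak was assigned to a member when it overlapped the gene body or the 10 kb on either side, which gave 255 of 152984 peaks in the WT list, 162 of 106974 in the het list and 279 of 174407 in the mutant list.

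The study addressed how loss of Chd7, which encodes an ATP-dependent nucleosome remodelling enzyme, changes DNA accessibility in GNPs. ATAC-seq, where a transposase cuts and tags DNA that is not covered by nucleosomes, was performed for 8 libraries of GNPs isolated on a Percoll gradient. The labels name the genotypes only as Chd7 wild type (WT, 3 libraries), mutant (3 libraries) and het (2 libraries). The methods for this assay give the mutant as homozygous and het as heterozygous, without naming the alleles. For other assays of P7 GNPs the study gives WT as Chd7 f/f, mutant as Atoh1-Cre::Chd7 f/f, and het as Atoh1-Cre::Chd7 f/+, where the Cre is driven by Atoh1, a gene of the granule cell lineage. The study describes Chd7 protein that remains in the posterior lobe of mutants, for which it names weaker recombination by this Cre as the probable reason. The strain given in the labels is C56Bl6/J. Replicates of WT and mutant are described as technical, and the floxed deletion itself was not checked in the peak lists.

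Each genotype was represented by a single list of peaks called on its pooled libraries. No value below therefore has a replicate error, no difference between genotypes could be tested, and the intervals given cover counting error only. In such pools, fewer cells with an open site and less opening per cell cannot be told apart. After duplicate filtering, 50394313 tags remained for WT, 51030229 for mutant and 30923002 for het. The het list was made with another aligner, a longer extension of tags (200 bp against 90 bp in WT and 88 bp in mutant) and fewer tags, so that in it presence and rank of a peak were compared, but not height. Among markers of the labelled cell type, 8 of 9 had a WT promoter peak (median pileup 60, range 36 to 84), and Zic2 had none. Promoters of other cell types of the cerebellum were present at lower numbers or heights in part: 5 of 5 for Bergmann glia and astrocytes (17 to 37), 4 of 5 for the oligodendrocyte lineage (32 to 40, Sox10 without a peak), 4 of 4 for inhibitory interneurons (16 to 36), 3 of 4 for Purkinje cells (45 to 82, Pcp2 without a peak), 3 of 3 for endothelium (10 to 27) and 1 of 3 for microglia (16, Cx3cr1 and Aif1 without a peak). The part of such cells in the values below was not tested.

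Wnt proteins are secreted, lipid-modified signals. In the canonical pathway they bring together a Frizzled receptor and the co-receptor Lrp5 or Lrp6, which stops the destruction complex from removing beta-catenin; beta-catenin then enters the nucleus and binds Tcf/Lef factors on DNA. Other Wnt proteins act through Frizzled and additional receptors on cell polarity and movement. In the hindbrain, Wnt1 is known for its role in setting up the midbrain and cerebellum, and Wnt7a for axon and synapse remodelling at the mossy fibre contacts of granule cells.

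To show the DNA on which the results turn, the reference sequence (RefSeq copy of GRCm38.p6, the mm10 assembly, plus strand, 5′ to 3′) is printed at 5 places: the strongest WT peaks away from any gene start for a ligand and for a Tcf/Lef factor, the strongest peak found in WT but not in mutant and the strongest in mutant but not in WT, and the site with the highest ratio of mutant to WT height among WT peaks at a −log10 q ≥ 5. Peaks of up to 300 bp are printed whole, and longer ones as the 300 bases around the summit. Capitals mark matches to the searched words.
Wnt6 intron, WT peak, chr1:74773143-74773424: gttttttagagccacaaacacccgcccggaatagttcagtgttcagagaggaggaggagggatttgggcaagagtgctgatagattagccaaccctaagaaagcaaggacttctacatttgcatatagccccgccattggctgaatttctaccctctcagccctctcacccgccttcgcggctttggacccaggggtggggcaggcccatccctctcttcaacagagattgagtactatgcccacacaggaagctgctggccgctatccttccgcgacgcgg
Tcf7l1 last exon, WT peak, chr6:72627408-72627707: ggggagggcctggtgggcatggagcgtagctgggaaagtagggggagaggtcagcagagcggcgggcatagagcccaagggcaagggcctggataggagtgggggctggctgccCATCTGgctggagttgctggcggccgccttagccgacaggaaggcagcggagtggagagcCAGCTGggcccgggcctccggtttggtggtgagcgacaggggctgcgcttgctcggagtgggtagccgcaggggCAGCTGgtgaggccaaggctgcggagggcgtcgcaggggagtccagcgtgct
Wnt10a exon, WT peak without a mutant peak, chr1:74793416-74793554: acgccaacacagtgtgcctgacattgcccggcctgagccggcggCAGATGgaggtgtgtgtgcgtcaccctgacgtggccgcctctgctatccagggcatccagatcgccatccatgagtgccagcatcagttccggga
Wnt6 upstream, mutant peak without a WT peak, chr1:74763240-74763368: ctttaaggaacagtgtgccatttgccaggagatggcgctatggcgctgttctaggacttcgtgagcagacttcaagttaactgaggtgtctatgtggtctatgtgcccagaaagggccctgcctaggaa
Wnt5b intron, mutant peak, chr6:119521490-119521789: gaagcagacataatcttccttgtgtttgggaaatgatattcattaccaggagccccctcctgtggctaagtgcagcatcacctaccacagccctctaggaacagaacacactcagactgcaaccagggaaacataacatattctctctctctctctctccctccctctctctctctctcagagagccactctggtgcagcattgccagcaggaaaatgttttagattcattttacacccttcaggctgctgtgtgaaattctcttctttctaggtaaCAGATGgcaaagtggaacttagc
The words searched on both strands were CTTTG followed by AA, AT, TA or TT for the Tcf/Lef factors, and CAGCTG or CAGATG for E-boxes, the elements bound by Atoh1 and other proneural factors. The Tcf7l1 window held 3 E-box words, the Wnt10a and Wnt5b windows 1 each, and both Wnt6 windows none. None of the 5 windows held a Tcf/Lef word.

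The 5 longest members, Tcf7l2, Tcf7l1, Lrp6, Lef1 and Wnt5b, were also those with the most accessible sites. Every member had at least 2 WT peaks in its window, with a median of 5 against 3 for all protein-coding genes, and a median density of 1.26 peaks per 10 kb against 0.716. Tcf7l2 (chr19:55741820-55933654, plus strand), which spans 192 kb, was richest, with 28 WT, 18 het and 34 mutant peaks. Fzd1 was poorest in WT, with 2, 2 and 3 peaks, in a window of 24.2 kb around the gene at chr5:4753839-4758035.

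Among the ligands, Wnt5b, which acts mostly outside the canonical pathway, held the most peaks (19, 10 and 20 in the same order of lists). Its 4 annotated starts lie in a gene at chr6:119432531-119544347. Wnt10a followed with 10, 6 and 10 peaks and Wnt3a, a canonical ligand, with 9, 4 and 11. Wnt6, Wnt9a and Wnt9b had 8 WT peaks each and 8 or 9 mutant peaks. Wnt4, known in kidney and gonad development, Wnt5a, a ligand of the polarity branch, and Wnt7a had 6 WT peaks each, with 7, 5 and 5 in mutant. Wnt1, Wnt2, Wnt3, Wnt7b and Wnt10b had 5 WT peaks each and 3 to 6 in mutant, Wnt11 had 4 and 5, and Wnt2b, Wnt8a, Wnt8b and Wnt16 were the poorest ligands with 3 WT peaks each and 3 or 4 in mutant. No ligand differed by more than 2 peaks between the WT and mutant lists. Ligand genes lie in pairs whose windows overlap, so 6 WT peaks were counted for both Wnt6 and Wnt10a, 2 for both Wnt1 and Wnt10b and 1 for both Wnt3a and Wnt9a; in all totals they were counted once.

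The Frizzled receptors, most of them genes of a few kb, had 2 to 5 WT peaks each. Fzd6, Fzd9 and Fzd10 had most, with 5 each in WT and with 4, 8 and 8 in mutant. Fzd4, Fzd5 and Fzd7 had 4 WT peaks each and 3 to 5 mutant peaks, and Fzd2, Fzd3 and Fzd8 had 3 in either list. Numbers in mutant were thus 3 higher at Fzd9 and Fzd10 and within 1 of WT at the other Frizzled genes. The co-receptors Lrp6 (17, 13 and 15, at chr6:134446476-134566965) and Lrp5 (10, 6 and 11) are genes of over 100 kb, and Ctnnb1, which encodes beta-catenin, had 6, 2 and 6. Besides Tcf7l2, the Tcf/Lef factors held 23, 19 and 28 peaks at Tcf7l1, 17, 9 and 18 at Lef1 and 4, 2 and 7 at Tcf7.

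**Figure D1:**
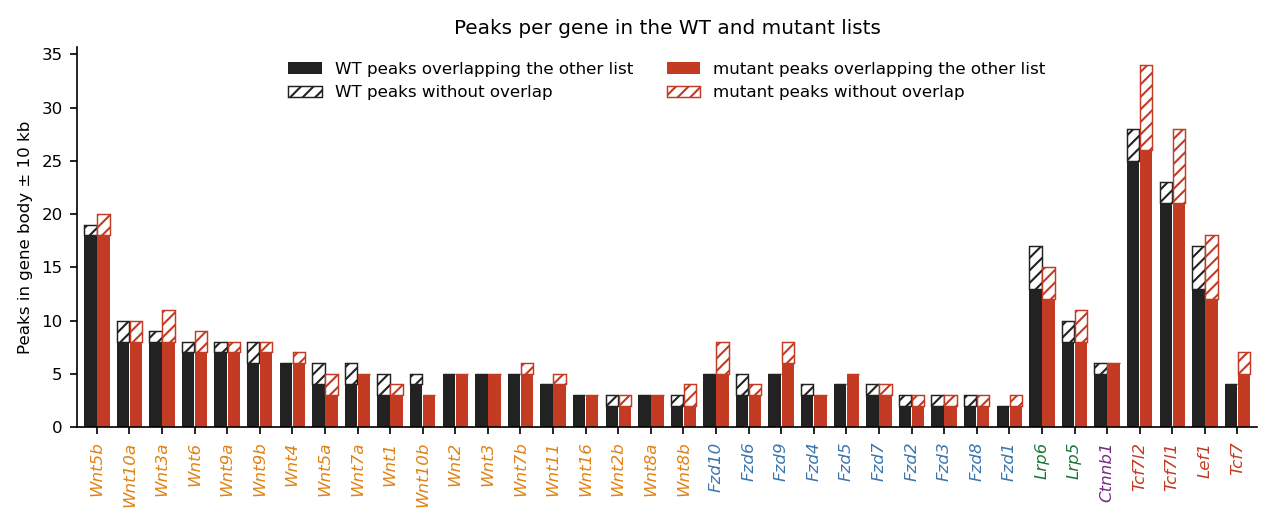
Peaks in the gene body and 10 kb on each side (y axis, number of peaks) of the 36 members (x axis, label colours give the roles: orange, ligands; blue, Frizzled receptors; green, co-receptors; purple, beta-catenin; red, Tcf/Lef factors) in the WT (black) and mutant (red) lists; hatched parts are peaks without an overlap in the other list. Tcf7l2, Tcf7l1 and Wnt5b have the tallest bars in both lists, and hatched parts are small beside solid ones for most members. Peaks in overlapping windows are drawn for both genes.

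Where the peaks lay differed with gene structure. Of 255 WT peaks, 61 had their summit within 1 kb of a member's transcript start, 115 in an intron, 25 in an exon, 20 upstream, 28 downstream and 6 at the start of another gene. Introns held 50 of 72 WT peaks of the Tcf/Lef factors and 44 of 112 of the ligands, but 3 of 38 of the Frizzled receptors, whose coding sequence often lies in a single exon. Numbers in the mutant list were alike, with 67 of 279 peaks at a member's start and 128 in introns.

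Promoter peaks of the Frizzled receptors were taller, by their median, than those of the ligands. A WT peak with a summit within 1 kb of an annotated start was present at 33 of 36 members (91.7%), against 69.4% of all protein-coding genes. All 10 Frizzled genes, both co-receptors, Ctnnb1 and all 4 Tcf/Lef factors had such a peak, and 16 of 19 ligands had one; Wnt3a, Wnt8a and Wnt8b were without. The height, as the pileup of tags at the summit of the strongest such peak, had a median of 61 (range 21 to 92) for Frizzled receptors, 38.5 (16 to 63) for Tcf/Lef factors and 22 (12 to 46) for ligands, beside 52 for all genes with a promoter peak. The ranges of Frizzled receptors and ligands overlapped, and with 1 list per genotype the difference was not tested. Median width went the same way, 986 bp for Frizzled receptors, 283 bp for ligands and 794 bp for all genes. By median −log10 q, Frizzled receptors (30.2) again stood above ligands (7.85), but below all genes with a promoter peak (32.9).

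Among the Frizzled receptors, Fzd1 had the tallest promoter peak of all members, with a pileup of 92 in WT and 99 in mutant. Fzd8 (82 and 88), Fzd7 (81 and 79), Fzd4 (78 and 83) and Fzd5 (71 and 75) came next. Fzd2 (51 and 56), Fzd3 (44 and 42), a receptor known for axon guidance, and Fzd9 (36 and 40) lay below the median of all genes in WT, and Fzd10 (24 and 25) and Fzd6 (21 and 30) were lowest. In this order of heights the counting intervals of neighbours overlapped. Fzd1, Fzd4, Fzd7, Fzd8 and Lrp6 were in the upper 10% of their list by q value in all 3 genotypes, with ranks in the het list of 98.7, 96.1, 92.9, 92.1 and 96.6 on a scale where 100 is the strongest. Such ranks were common among promoters. Over all genes with a promoter peak the median rank was 91.3 in WT, 89.0 in het and 92.5 in mutant. Fzd8, at 90.5 in WT, lay below that median.

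The co-receptors were unlike each other. Lrp6 had a promoter pileup of 76 in WT and 72 in mutant and Lrp5 of 18 and 17, with het ranks of 96.6 and 18.6. Ctnnb1 stood at 46 and 50. Of the factors that take the signal to DNA, Tcf7l2 (63 and 56) and Tcf7l1 (49 and 44), the latter known mainly as a repressor of target genes, had taller promoter peaks than Lef1 (28 and 34) and Tcf7 (16 and 17) in both lists. At Lef1 the strongest peaks of both lists lay at different starts, and the mutant peak over the WT site had a pileup of 30.

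The tallest ligand promoters were those of Wnt16 (46 in WT and 41 in mutant), Wnt11 (35 and 41), Wnt2 (31 and 35) and Wnt5a (29 and 29). Wnt7b and Wnt10a both had 24 and 22, Wnt9a 23 and 24, Wnt2b 22 and 20 and Wnt9b 22 and 23. A low group followed with Wnt10b (17 and 19), Wnt6 (17 and 13, at different starts, with 16 in mutant over the WT site), Wnt4 (16 and 16), Wnt5b (16 and 22), Wnt3 (13 and 17), Wnt7a (13 and 16) and Wnt1 (12 and 16). All 16 ligand promoter peaks of the WT list were thus below the median of all genes, 52. In the het list Wnt6 and Wnt10a had no promoter peak, and Wnt3a had one in the mutant list alone, with a pileup of 11. The mutant list has more peaks in total, and a peak this low is near the floor of the lists, so its absence from WT and het is not a detectable difference at this depth.

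**Figure D2:**
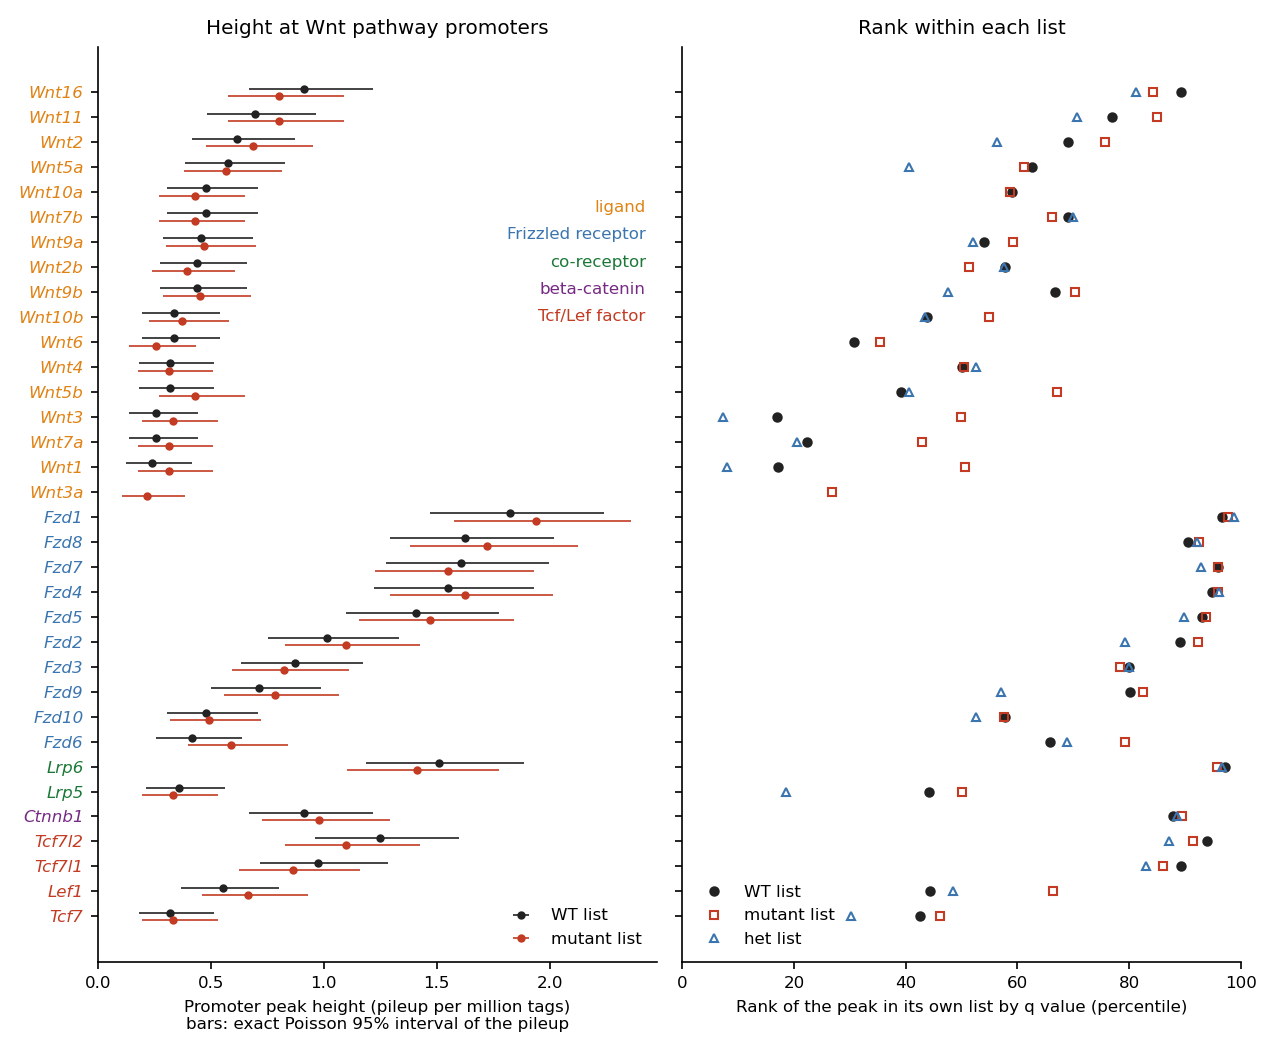
Left, height of the strongest promoter peak (x axis, pileup scaled to the tags of its list) of the 34 members with one in WT or mutant (y axis, label colour by role), black for WT and red for mutant, with exact Poisson 95% intervals of the pileup (bars). Right, percentile rank of the same peaks by q value within the WT (filled circles), mutant (squares) and het (triangles) lists. Fzd1, Fzd8, Fzd7, Fzd4, Fzd5 and Lrp6 lie to the right of all ligands, and the bars of WT and mutant overlap at every member with both. At Wnt6 and Lef1 the strongest WT and mutant peaks lie at different starts.

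When each WT promoter peak was set against the mutant peak that overlaps it, none of 33 differed by as much as 1.5-fold. Ratios of mutant to WT pileup, each scaled to the tags of its list, ran from 0.878 at Tcf7l2 (95% interval 0.601 to 1.28) to 1.41 at Fzd6 (0.781 to 2.59), and 13 were lower and 20 higher in the mutant. Over all protein-coding genes with such a pair, 0.600% were at least 1.5-fold lower and 1.22% at least 1.5-fold higher, so a count of 0 among 33, which allows a share of up to 9.09%, is near that background. The median log2 ratio was 0.06 for members and 0.05 for all such genes. Of all such genes, 9219 of 14835 were higher in the mutant, beside 20 of 33 members. By role, in small counts that were not tested, 8 of 10 Frizzled promoters and 9 of 16 ligand promoters were higher. Both co-receptors were lower, at ratios of 0.936 for Lrp6 and 0.933 for Lrp5. All of these single intervals include 1. At the tallest promoter, Fzd1, the interval ran from 0.792 to 1.43, and a smaller change was not detectable at this depth.

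The number of CpG dinucleotides at the promoter peaks was alike for ligands and Frizzled receptors. In the 300 bases around the summit, the median was 27.5 for the 16 ligands and 26.5 for the 10 Frizzled receptors. Wnt9a had 58 CpG at a pileup of 23 and Wnt5b 50 at a pileup of 16, whereas Fzd8 had 14 at 82 and Fzd2 10 at 51. Low ligand peaks lay on CpG-rich as well as CpG-poor DNA, with 6 CpG at Wnt7b.

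Away from starts, the strongest WT peak of the ligands, by q value, lay in an intron of Wnt6, 1.41 kb from the start, at chr1:74773143-74773424, whose sequence is printed above. It had a pileup of 60 and a −log10 q of 44.6, above the Wnt6 promoter peak itself with 17, and had a partner in both other lists (50 in mutant, ratio 0.823, 95% interval 0.554 to 1.22). For the Frizzled receptors the strongest by q value was 3′ of Fzd6 at chr15:39042041-39042567 (51 in WT and 49 in mutant, −log10 q 38.3 in WT), where the Fzd6 promoter had 21. By pileup, exon peaks of Fzd8 (80 and 70, −log10 q 29.2) and Fzd7 (56 and 47, 22.5) were taller. For the co-receptors it was 3′ of Lrp6 at chr6:134439385-134440265 (50 and 51). Among the Tcf/Lef factors it was the last exon of Tcf7l1 at chr6:72627269-72627743 (58 and 56, of which the 300 bases around the summit are printed above), and a peak in an intron of Tcf7l2 at chr19:55880540-55881168 came next (42 and 54, ratio 1.27, 0.833 to 1.95). At Ctnnb1 the strongest was an intron peak of 23 in WT and 20 in mutant. Apart from that of Ctnnb1, all these distal sites had a het peak, and none differed between WT and mutant beyond its counting interval.

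**Figure D3:**
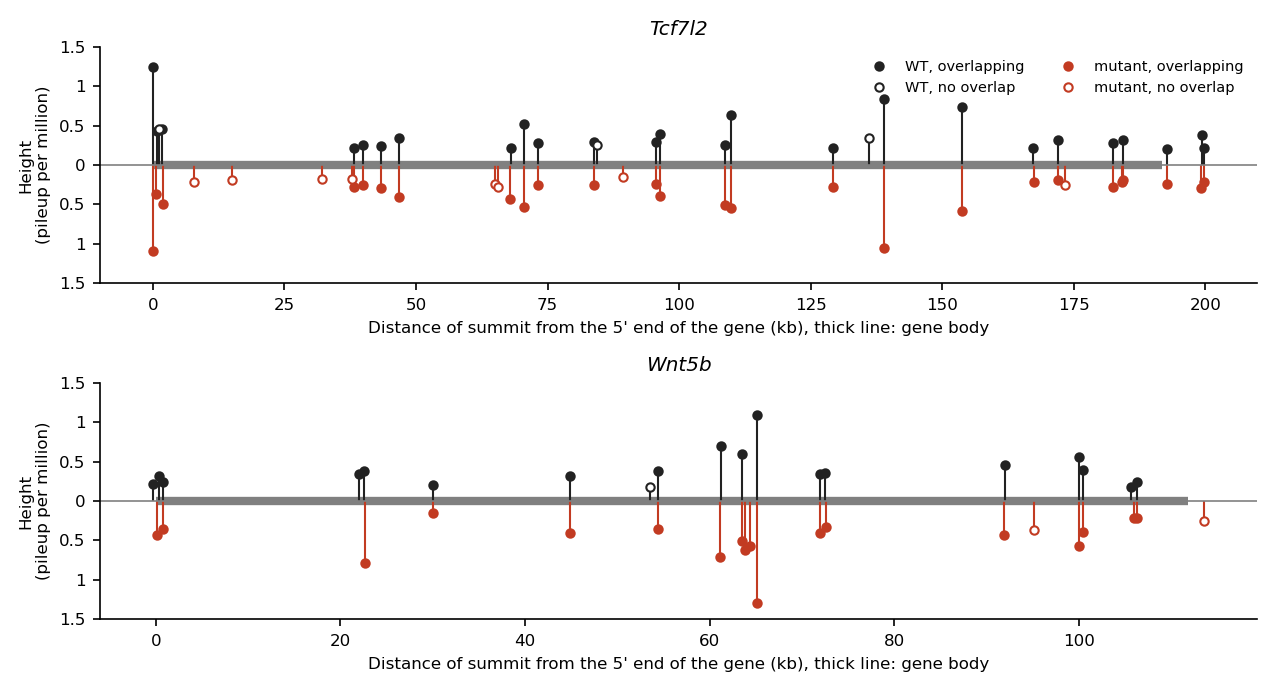
Summits along Tcf7l2, the member with the most WT peaks, and Wnt5b, the ligand with the most (x axis, distance from the 5′ end of the gene in kb; the thick grey line is the gene body), with height upwards for WT (black) and downwards for mutant (red) in scaled pileup; open circles have no overlap in the other list. Tall peaks stand opposite each other in both genes, and open circles are low.

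Sequence words were counted in the 300 bases around each summit. Tcf/Lef words were found in 23 of 188 member WT peaks away from starts (12.2%, Wilson 95% CI 8.29 to 17.7%), against 20.3% of all WT peaks away from starts. Base composition moved with this difference, at a median GC content of 53.8% for the members and 49.0% for all, and its part was not tested. E-box words were found in 108 of the 188 (57.4%, 50.3 to 64.3%), against 56.6%. At the Tcf/Lef genes themselves, 8 of 59 distal peaks held a Tcf/Lef word (13.6%, 7.03 to 24.5%). Member WT peaks without a mutant peak held an E-box word in 20 of 38 cases (52.6%, 37.3 to 67.5%) and those with one in 103 of 217 (47.5%, 40.9 to 54.1%), which differed by less than the counting error.

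Most member sites were accessible in WT as well as in mutant cells. Of 255 WT peaks, 38 had no overlapping mutant peak (14.9%, 11.1 to 19.8%), against 22.8% of all WT peaks. In the other direction, 59 of 279 mutant peaks had no WT peak (21.1%, 16.8 to 26.3%), against 30.7% of all mutant peaks. The member shares were thus lower than those of their lists. This order depended on peak strength, on nearness to a gene start and on the overlap asked for. Among WT peaks within 1 kb of a start, 8 of 67 member peaks lacked a mutant peak (11.9%, 6.18 to 21.8%), against 8.52% of all. Among such mutant peaks, 13 of 75 lacked a WT peak (17.3%, 10.4 to 27.4%), against 12.6% of all. Both of these intervals include the value of the list. Among WT peaks at a −log10 q ≥ 5 the shares were 11 of 155 (7.10%, 4.01 to 12.3%) and 5.78%, and among weaker ones 27 of 100 (27.0%, 19.3 to 36.4%) and 50.7%. Among mutant peaks at that level the shares were 11 of 176 (6.25%, 3.53 to 10.8%) and 11.2%. When both lists were restricted to a −log10 q ≥ 5, the order of the shares turned. Then 19.4% (13.9 to 26.3%) of member and 13.7% of all WT peaks lacked a mutant partner. For mutant peaks without a WT partner the shares were 29.5% (23.3 to 36.7%) and 24.0%, so that this interval includes the value of the list. With a 50% reciprocal overlap the shares were 34.1% (28.6 to 40.1%) of member and 35.9% of all WT peaks, and 39.8% (34.2 to 45.6%) of member and 43.8% of all mutant peaks, so that both intervals of the members include the value of the list. The weak member peaks were taller than other weak peaks (median pileup 12.5 against 10) and stood on a higher local background (2.70 against 1.86 tags); the part of these differences was not tested.

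**Figure D4:**
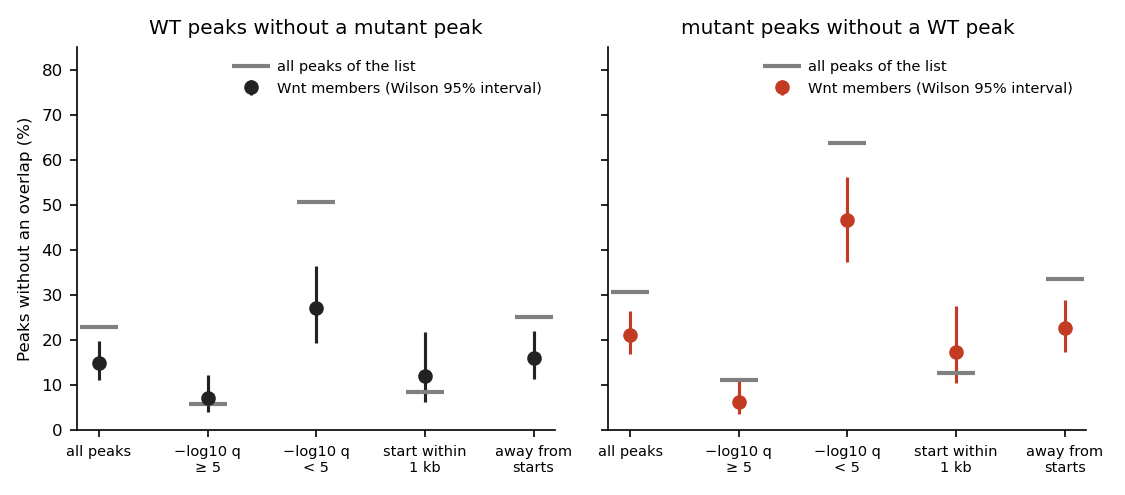
Share of peaks without an overlap in the other list (y axis, percent) for the members (points, with Wilson 95% intervals) and for the whole list (grey bars), over all peaks, strong and weak peaks by −log10 q, and peaks near and away from any gene start. The members lie under the list for all peaks, weak peaks and peaks away from starts, and for WT their interval includes the value of the list among strong peaks and peaks near starts.

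By role, WT peaks without a mutant peak made up 15 of 112 for ligands (13.4%, 8.29 to 20.9%), 7 of 38 for Frizzled receptors (18.4%, 9.22 to 33.4%), 6 of 27 for co-receptors, 1 of 6 for Ctnnb1 and 9 of 72 for Tcf/Lef factors (12.5%, 6.72 to 22.1%). Mutant peaks that lacked a WT partner were 19 of 116 for ligands (16.4%, 10.7 to 24.2%), 11 of 44 for Frizzled receptors (25%, 14.6 to 39.4%), 6 of 26 for co-receptors, 0 of 6 for Ctnnb1 and 23 of 87 for Tcf/Lef factors (26.4%, 18.3 to 36.6%). Over the whole lists the shares were 22.8% of WT and 30.7% of mutant peaks. The intervals lay under these values for ligands in both directions and for Tcf/Lef factors in WT. All other intervals by role include the value of the list. Peak strength, on which the order depended over all members, was not split by role. The intervals of ligands and Tcf/Lef factors overlapped in both directions. For Ctnnb1, the count of 0 among 6 allows a share of up to 50%. Of the 23 mutant peaks at Tcf/Lef genes without a WT peak, 8 lay at Tcf7l2, 7 at Tcf7l1, 6 at Lef1 and 2 at Tcf7.

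The het list held a peak at 166 of 255 member WT peaks (65.1%, 59.1 to 70.7%), against 63.1% of all WT peaks. Where WT and mutant shared a peak, het had it in 162 of 217 cases (74.7%, 68.5 to 80.0%), against 77.9% of all shared WT peaks. Where they did not, het had 4 of 38 WT peaks without a mutant peak (10.5%, 4.17 to 24.1%, against 13.2% of all such WT peaks) and 5 of the 59 seen in mutant alone of the pair (8.47%, 3.67 to 18.4%, against 15.2% of all such mutant peaks). These 2 member shares differed from each other and from those of their lists by less than the counting error. Conversely, 7 of 162 het peaks overlapped neither other list (4.32%, 2.11 to 8.65%), against 7.41% of all het peaks.

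Few strong peaks belonged to a single list, among the members as well as in the whole lists. At a −log10 q ≥ 5 and with no peak of the other list within 300 bp, 8 of 155 WT peaks remained (5.16%), against 4.96% of all such WT peaks, and 9 of 176 mutant peaks (5.11%), against 9.84% of all such mutant peaks. The WT peaks were led by an exon of Wnt10a at chr1:74793416-74793554 (pileup 26, −log10 q 7.78), printed above, near the start of the shorter of its 2 annotated transcripts. Next came a site upstream of Wnt8b (−6.01 kb from its start) at chr19:44487378-44487520 (13, 6.24), an intron of Tcf7l1 at chr6:72631102-72631232 (24, 5.91), an intron of Lef1 at chr3:131171706-131171795 (13, 5.41) and an exon of Fzd3 at chr14:65200275-65200369 (12, 5.37). The remaining 3 lay at Tcf7l2, with 2, and at Fzd2. Of the 8, the het list held the Tcf7l1 site alone.

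The mutant peaks without a WT peak were led by a site upstream of Wnt6 (−8.59 kb from its start) at chr1:74763240-74763368, printed above, with a pileup of 18 and a −log10 q of 11.2. An intron of Lrp6 at chr6:134555373-134555499 (20, 10.1), an intron of Fzd6 at chr15:39023215-39023345 (16, 7.03), a site 3′ of Wnt5b at chr6:119430698-119430812 and an intron of Tcf7l2 at chr19:55915036-55915149 (both 13, 6.33) followed. The others were an exon of Wnt5b and introns of Wnt5a, Lrp6 and Tcf7l1. The Lrp6 site with a pileup of 20 was the single one of the 9 that het shared. All 17 peaks were narrow, at 90 to 386 bp, and lay at or below a pileup of 26.

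At shared sites the height of member peaks differed little between the lists. Over 217 shared WT peaks the median log2 ratio of mutant to WT scaled pileup was 0.04 (95% interval of the median −0.02 to 0.08, counting peaks as independent), against 0.08 over all shared peaks, with 101 lower and 116 higher in the mutant. At least 1.5-fold lower were 5 of 217, or 2.30%, against 3.61% of all shared peaks, and at least 1.5-fold higher were 16, or 7.37%, against 8.37%. The counting interval of the ratio lay wholly under 1 for 0 of 217 (an upper limit of 1.38%, beside 0.514% of all shared peaks) and wholly over 1 for 4, or 1.84% (1.43%). All of these member shares were near the background of their list. Medians by role were 0.03 for ligands, 0.08 for Frizzled receptors, 0.15 for co-receptors, 0.10 for Ctnnb1 and 0.00 for Tcf/Lef factors.

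**Figure D5:**
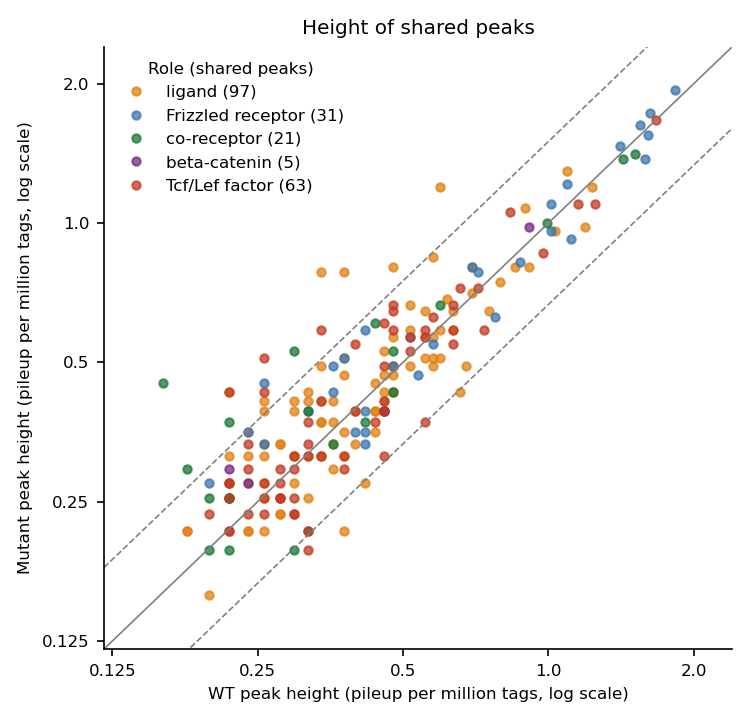
Height of the 217 shared peaks in the WT list (x axis) and the mutant list (y axis), in scaled pileup on log scales, coloured by role; the solid line marks equal height and the dashed lines a 1.5-fold difference. Tall peaks lie close to the solid line, and the peaks outside the dashed lines are mostly low in WT.

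The lowest ratios among shared peaks at a WT −log10 q ≥ 5 were at an intron of Wnt3a (19 in WT and 11 in mutant, ratio 0.572, 0.246 to 1.26), an intron of Tcf7l2 (16 and 10, 0.617, 0.250 to 1.45), an exon of Wnt6 (21 and 14), an intron of Lrp6 (15 and 10) and an intron of Wnt11 (33 and 22), the latter 3 at 0.658. All 5 intervals include 1. The highest ratio was in an intron of Wnt5b about 22 kb from its start. There 2 WT peaks, with pileups of 19 at chr6:119521499-119522130 and 17 at chr6:119522279-119522426, faced a single mutant peak of 40 at chr6:119521473-119522362 (ratios 2.08, 1.18 to 3.80, and 2.32, 1.29 to 4.37), and a het peak was present at the same place. Its mutant summit is in the fifth sequence printed above. The next was a WT peak of 30 set against a mutant peak of 61 (2.01, 1.28 to 3.22) in the window of Wnt10b, but this is the promoter of the neighbouring gene Arf3, where the WT list has a second peak of 62 under the same mutant peak. An intron of Lrp6 (15 and 27, 1.78, 0.913 to 3.60) and one of Tcf7l1 (17 and 30, 1.74, 0.931 to 3.37) had intervals that include 1. At this Lrp6 intron too, the same mutant peak overlaps a taller WT peak of 24, against which the ratio was 1.11. The fourth peak with an interval over 1 was a weak one in an exon of Lrp6 (8 and 23, 2.84, 1.23 to 7.34). As an alternative chosen after seeing the data, only the tallest WT peak of each mutant peak was kept. Then 11 of 209 member peaks were at least 1.5-fold higher, beside 7.43% of all such peaks of the whole list. The Wnt5b intron was still among the 11.

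Other genes of the pathway, taken as a list of 51, were close to the members in the sharing of peaks and in height ratios. Of their 420 WT peaks, 69 had no mutant peak (16.4%, 13.2 to 20.3%), against 22.8% of all WT peaks, and of 477 mutant peaks 116 had no WT peak (24.3%, 20.7 to 28.4%), against 30.7% of all mutant peaks. At least 1.5-fold lower were 10 of 351 shared peaks, or 2.85%, beside 3.61% of all shared peaks, and at least 1.5-fold higher 22, or 6.27%, beside 8.37%, with a median log2 ratio of 0.05. Promoter peaks were present in WT at 49 of 51, beside 69.4% of all protein-coding genes. Their median pileup was 48, beside 28 for the members and 52 for all genes with a promoter peak. By group the medians were 65 for the destruction complex, 64.5 for secretion, 59 for nuclear partners of beta-catenin and 48 for Dishevelled. Agonists with their receptors, and feedback and target genes, also had 48. Medians were 45 for receptor turnover, 36.5 for extracellular antagonists such as the Dkk and Sfrp proteins and 31 for other Wnt receptors. Among genes with at least 10 WT peaks the share without a mutant peak, 22.8% over the whole list, was highest for Dkk3, a secreted protein of the Dickkopf family, with 6 of 13 (46.2%, 23.2 to 70.9%), and Lgr5, a receptor for R-spondins, with 8 of 20 (40.0%, 21.9 to 61.3%). Dkk3 held 13 WT and 7 mutant peaks. It was lowest for Axin2, a feedback inhibitor that is itself a target of the pathway, with 0 of 12 (upper limit 25%), and Bcl9l, a partner of beta-catenin, with 0 of 11 (27.3%). These 4 are extremes of the list and were not tested.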

How the data were processed

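Peak lists of ATAC-seq of 8 libraries were analysed as deposited, 1 list for each of 3 groups (WT, mutant and het), with groups taken from the genotype in the labels. Per the submitters' notes, the authors trimmed reads with Trim Galore 0.4.1, removed duplicates with Picard 1.139 and called peaks with MACS2 2.1.0.20150731 on mm10, at a q value of 0.05 and without a control. Per the file headers, WT and mutant came from STAR alignments (2.5.0b in the notes) without a shift and with tags of 107 and 76 bp, and het from Bowtie 1.0.0 with a shift and an extension of 200 bp, whereas the study's methods give the latter settings for all groups. Height is the deposited signal, the pileup of extended tags at the summit, unscaled by the authors. Fold enrichment is the ratio to local background deposited by the authors, and significance their −log10 q. All 3 depend on depth and extension, no value of a single library was used, and 0 columns were left unassigned.

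Pileups of WT and mutant were scaled to the tags of the list. At most 1 tag per position and strand was kept, which sets a ceiling of 180 (WT) and 176 (mutant), above all members. Overlap meant at least 1 bp; a shared WT peak, promoter peaks included, was set against the strongest overlapping mutant peak. Shares have Wilson intervals, ratios exact conditional binomial intervals and pileups exact Poisson intervals, at 95%. Overlap and Wilson intervals were tested on simulated data, and the other intervals were not. Calculations used python 3.11.15, scipy 1.17.1 and pandas 2.3.3.

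The members and gene lists were chosen with earlier results of these data known. Values were given for the promoter peak of each member, per role for the member with most WT peaks and the strongest WT peak away from starts, for strong peaks without a partner within 300 bp (the 5 strongest each way), for the 5 lowest and 5 highest ratios, and for the extremes of the other pathway genes. Alternatives changed the overlap, the q value, the window, the scaling and the promoter distance.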

Additional observations from a re-analysis of the deposited data

How the results depend on the processing

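Under 42 alternative settings of 7 results, 30 values stayed inside the interval of the reported value or within 1.5 times the reported count, and 12 moved. With a 50% reciprocal overlap, WT peaks without a mutant peak made up 34.1% (35.9% of the whole list), mutant peaks without a WT peak 39.8% (43.8%), and WT peaks with a het peak 48.6% (50.1%). With the counted list alone at a −log10 q ≥ 5 these were 7.10% (5.78%), 6.25% (11.2%) and 80.7% (84.2%). With both lists at that level, 29.5% of mutant peaks had no WT peak (24.0%) and 74.8% of WT peaks had a het peak (77.5%). Relative to the median of all shared peaks, the median log2 ratio of shared member peaks changed sign, to −0.034. The number at least 1.5-fold lower in the mutant went from 5 to 9 of 217, beside 5.10% of all shared peaks. By fold enrichment it was 1 of 217, beside 1.94%. At a WT −log10 q ≥ 5, 6 of 144 shared peaks were at least 1.5-fold higher, beside 4.72% of all such peaks. The cause of these moves was not tested beyond the construction of each setting. Members with a WT promoter peak numbered 26 to 31 of 36 under other definitions, against 33. They were 26 with a summit within 250 bp of a start, where 60.8% of all protein-coding genes had such a peak. With WT peaks at a −log10 q ≥ 5 they were 29 (65.4%), and with the 5′ end of the gene alone 31 (64.0%). No paired analysis was possible because each list pools the libraries of its genotype, and for the same reason no library could be left out in turn. Depth limits single heights: at the lowest member promoter, Wnt1, with 12 and 16 tags, the interval of the ratio ran from 0.585 to 3.05.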
